A study of Mus musculus with 9 samples.

Results

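Heterochromatin protein 1 (HP1) and the enzymes that methylate lysine 9 of histone H3 (H3K9) were followed on 9 Affymetrix mouse expression arrays, 5 of embryoid bodies (EB, sample numbers 1, 3, 5, 7 and 9) and 4 of mouse embryonic stem cells (ESC, sample numbers 2, 6, 8 and 10). All samples were labelled as E14 cells, a single established mouse ESC line, without treatment. Embryoid bodies are aggregates in which ESCs differentiate, and their age at harvest is not given in the sources used here. Values are the authors' GCRMA intensities, a background-corrected and normalized signal per probe set, and were taken to log2. The members were chosen by gene symbol: Cbx1, Cbx3 and Cbx5 for HP1β, HP1γ and HP1α, Trim28 and Setdb1, Suv39h1 and Suv39h2, and Ehmt1 and Ehmt2 for GLP and G9a. Of these 9 genes, 8 had a probe set that the array's annotation paired with that symbol alone, which gave 22 of the 45037 non-control probe sets. Suv39h1 had none and was not analysed here, and Cbx3 had 1. On the array's naming, 15 of the 22 end in a plain _at, 4 in _a_at, where all probes match transcripts of 1 gene, and 3 in _x_at, where some probes may also bind other sequences.

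Methylated H3K9 marks silent chromatin. The chromodomain of HP1 proteins binds this mark, and HP1 in turn recruits further silencing factors. TRIM28 is brought to DNA by KRAB zinc finger proteins and recruits SETDB1, which places the trimethyl mark on endogenous retroviruses and imprinted regions of ESCs. SUV39H enzymes place the trimethyl mark at pericentromeric repeats, and the GLP-G9a complex places the mono- and dimethyl marks within the gene-rich part of the genome.

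Trim28 fell most in embryoid bodies among these genes, and Cbx1, Ehmt2 and Setdb1 also had probe sets that fell. Cbx5 and Ehmt1, the partner paralogs of Cbx1 and Ehmt2, each had a probe set that rose. In a limma fit over all probe sets, 8 of the 22 member probe sets were called at a Benjamini-Hochberg adjusted p under 0.05, 2 higher and 6 lower in EB. Over all probe sets, 21.1% were called, 10.5% higher and 10.6% lower. The called members came from 6 genes. No member gene was called in both directions, and no called probe set was near the floor of the GCRMA scale, taken as log2 4. Of the 22, 4 lay under log2 4 in both groups. Among all probe sets at log2 4 or more in at least 1 group, 39.1% were called, against which 8 of 18 members is a similar share. The arrays of the 2 groups did not overlap for 10 member probe sets, which held for 26.3% of all probe sets. The median difference, EB minus ESC, was -0.13 over the 22 and -0.04 over all probe sets. In both groups the arrays split by sample number. Over all probe sets, EB arrays correlated at r = 0.9983 to 0.9986 within numbers up to 6 or above 6 and at 0.9966 to 0.9975 across them, and ESC arrays at 0.9976 to 0.9978 within and 0.9953 to 0.9958 across. Single markers split as well. Hbb-bh1, an embryonic globin, read 12.33 to 12.50 on EB 1, 3 and 5 and 10.26 to 10.42 on EB 7 and 9, and Col3a1, a fibroblast collagen, 3.12 to 3.65 on ESC 2 and 6 and 5.51 to 6.28 on ESC 8 and 10. The labels name no batch, and every called member had the same direction within both sets of numbers. The part of this split in the results was not tested beyond the within-set values given below. Without EB array 9, 12735 probe sets were called lower in place of 4778, of which 7993 and 385 were under log2 4 in both groups, while the members called lower numbered 7.

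**Figure D1:**
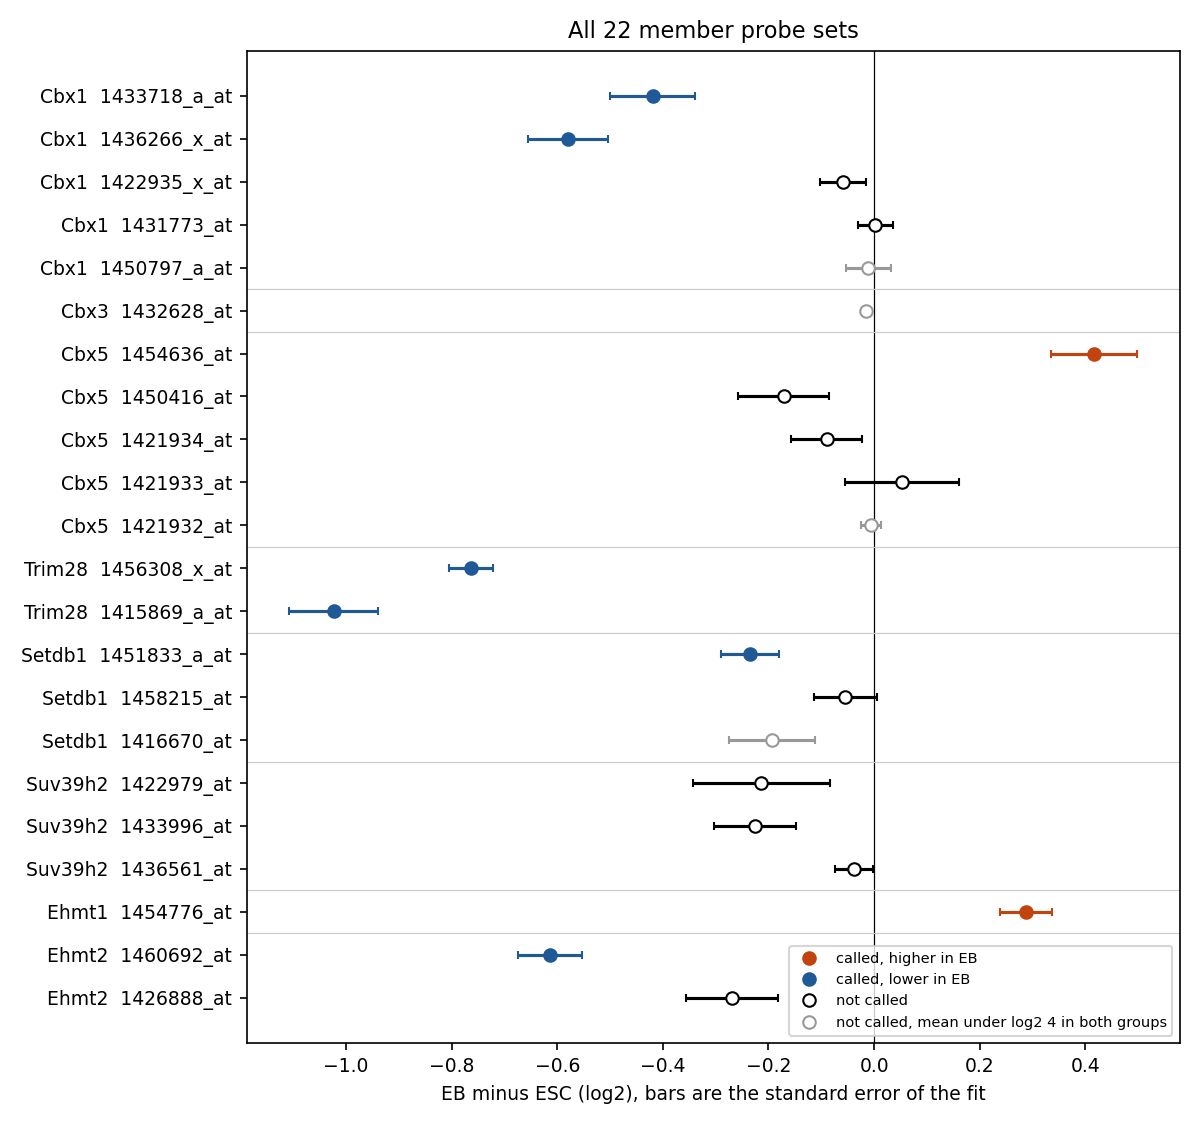
Difference in log2 GCRMA value, EB minus ESC (horizontal axis, bars are the standard error of the limma fit), for each of the 22 probe sets (vertical axis, grouped by gene), with called probe sets filled. Both Trim28 probe sets lie furthest left at -0.76 and -1.02, and 1 probe set each of Cbx5 and Ehmt1 is called higher, at 0.42 and 0.29.

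The windows around the annotated starts of Trim28 and of the paralog pairs whose brightest probe sets moved apart are shown because these genes carry the changes described below. They span 250 bases before to 50 bases after the start (RefSeq, GRCm38.p6), with the hexamer GGGCGG, a GC box, or its reverse complement CCGCCC in capitals.
Trim28, chr7:13023902-13024201, plus strand: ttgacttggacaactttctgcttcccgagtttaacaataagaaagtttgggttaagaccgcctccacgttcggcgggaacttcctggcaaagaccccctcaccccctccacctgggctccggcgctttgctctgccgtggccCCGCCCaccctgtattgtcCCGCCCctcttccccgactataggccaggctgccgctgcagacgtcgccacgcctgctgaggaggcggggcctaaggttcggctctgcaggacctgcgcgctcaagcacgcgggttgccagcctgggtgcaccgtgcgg
Ehmt2, chr17:34898224-34898523, plus strand: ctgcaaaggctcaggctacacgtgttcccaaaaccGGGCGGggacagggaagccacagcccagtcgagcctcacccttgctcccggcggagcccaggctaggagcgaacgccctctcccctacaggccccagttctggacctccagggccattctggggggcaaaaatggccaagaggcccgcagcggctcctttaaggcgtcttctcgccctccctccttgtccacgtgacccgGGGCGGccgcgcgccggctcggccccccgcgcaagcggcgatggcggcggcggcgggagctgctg
Ehmt1, chr2:24919560-24919859, minus strand: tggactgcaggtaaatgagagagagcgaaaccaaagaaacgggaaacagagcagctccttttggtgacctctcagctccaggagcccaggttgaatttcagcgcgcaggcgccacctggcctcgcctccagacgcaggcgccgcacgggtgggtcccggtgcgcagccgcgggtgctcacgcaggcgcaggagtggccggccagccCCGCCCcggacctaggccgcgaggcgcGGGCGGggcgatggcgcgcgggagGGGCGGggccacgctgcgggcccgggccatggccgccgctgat
Cbx1, chr11:96788885-96789184, plus strand: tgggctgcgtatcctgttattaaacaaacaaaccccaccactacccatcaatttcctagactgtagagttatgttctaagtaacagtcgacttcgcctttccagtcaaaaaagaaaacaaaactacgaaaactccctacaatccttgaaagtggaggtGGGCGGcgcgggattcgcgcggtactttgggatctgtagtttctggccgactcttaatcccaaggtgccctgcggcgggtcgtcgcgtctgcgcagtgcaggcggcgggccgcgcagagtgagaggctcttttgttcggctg
Cbx5, chr15:103239803-103240102, minus strand: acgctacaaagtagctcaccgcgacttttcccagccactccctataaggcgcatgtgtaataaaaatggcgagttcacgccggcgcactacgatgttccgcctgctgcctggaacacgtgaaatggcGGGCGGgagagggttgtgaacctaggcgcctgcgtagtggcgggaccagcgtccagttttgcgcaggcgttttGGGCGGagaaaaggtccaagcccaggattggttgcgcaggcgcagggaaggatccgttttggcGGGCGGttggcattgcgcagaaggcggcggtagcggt
The hexamer was searched on both strands. It was present in 12 of the 13 windows held for the 9 genes and in 35.7% of all 32851 windows of the same length. Trim28 had 2, Ehmt2 2, Ehmt1 3, Cbx1 1 and Cbx5 3 in the windows shown, so it was present in windows of genes with probe sets that fell and that rose. Ehmt2 and Cbx5 each had a further window that is not shown, where the hexamer occurred 4 times for Ehmt2 and 1 time for Cbx5. The member windows also held 8 to 40 CG dinucleotides, against a median of 7 over all windows.

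Trim28 encodes the corepressor, also called KAP1, that links KRAB zinc finger proteins to SETDB1 and HP1. On probe set 1415869_a_at the log2 values were 11.58, 11.75, 11.73, 11.89 and 11.73 in EB 1, 3, 5, 7 and 9, against 12.54, 12.72, 12.91 and 12.86 in ESC 2, 6, 8 and 10. The 5 EB arrays all lay below the 4 ESC arrays, by more than either group's own spread. The level fell by 50.8% in EB (log2 difference -1.02, SE 0.08, limma adjusted p = 2.23e-05), and this was the only member probe set past a fold of 2. On 1456308_x_at the values were 11.89, 11.93, 11.84, 11.94 and 11.92 in EB and 12.59, 12.62, 12.74 and 12.73 in ESC (difference -0.76, SE 0.04, adjusted p = 2.01e-06). Here too the groups were far apart, and the EB arrays were close to each other. The difference on 1415869_a_at was -0.95 for sample numbers up to 6 and -1.08 for those above, and that on 1456308_x_at -0.71 and -0.80, all past the threshold. The probe sets thus gave one direction but not one size. The fall was 0.26 larger on 1415869_a_at, a difference that held on comparison of the arrays (two-sided exact permutation test over 5 EB and 4 ESC arrays, p = 0.0159, the smallest this design allows, adjusted p = 0.0349 over 11 pairs of probe sets).

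Setdb1, the methyltransferase that TRIM28 recruits, changed less. On 1451833_a_at the values were 8.54, 8.46, 8.54, 8.43 and 8.61 in EB and 8.67, 8.82, 8.79 and 8.71 in ESC. The groups did not overlap, with EB 9 and ESC 2 the nearest arrays. The level fell by 15.1% (difference -0.24, SE 0.05, adjusted p = 0.0124). The other Setdb1 probe sets were not called: 1458215_at averaged 6.23 ± 0.05 in EB and 6.29 ± 0.11 in ESC, and 1416670_at, near the floor, 3.69 ± 0.02 in EB and 3.88 ± 0.20 in ESC (SD, n = 5 EB and 4 ESC arrays, as for each mean below). The change in Trim28 was 0.53 larger than that in Setdb1 by the brightest probe set of each (exact permutation test, adjusted p = 0.0159 over 3 pairs of genes). Probe sets of the same gene also differed in this test, by 0.26 in Trim28 and by up to 0.59 in Cbx5. The part of the choice of probe set in the gap between the genes was not tested. When the arrays were split by sample number, the Setdb1 difference was nearly the same, -0.23 for numbers up to 6 and -0.24 for those above, but neither passed on its own (adjusted p = 0.0843 and 0.117).

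**Figure D2:**
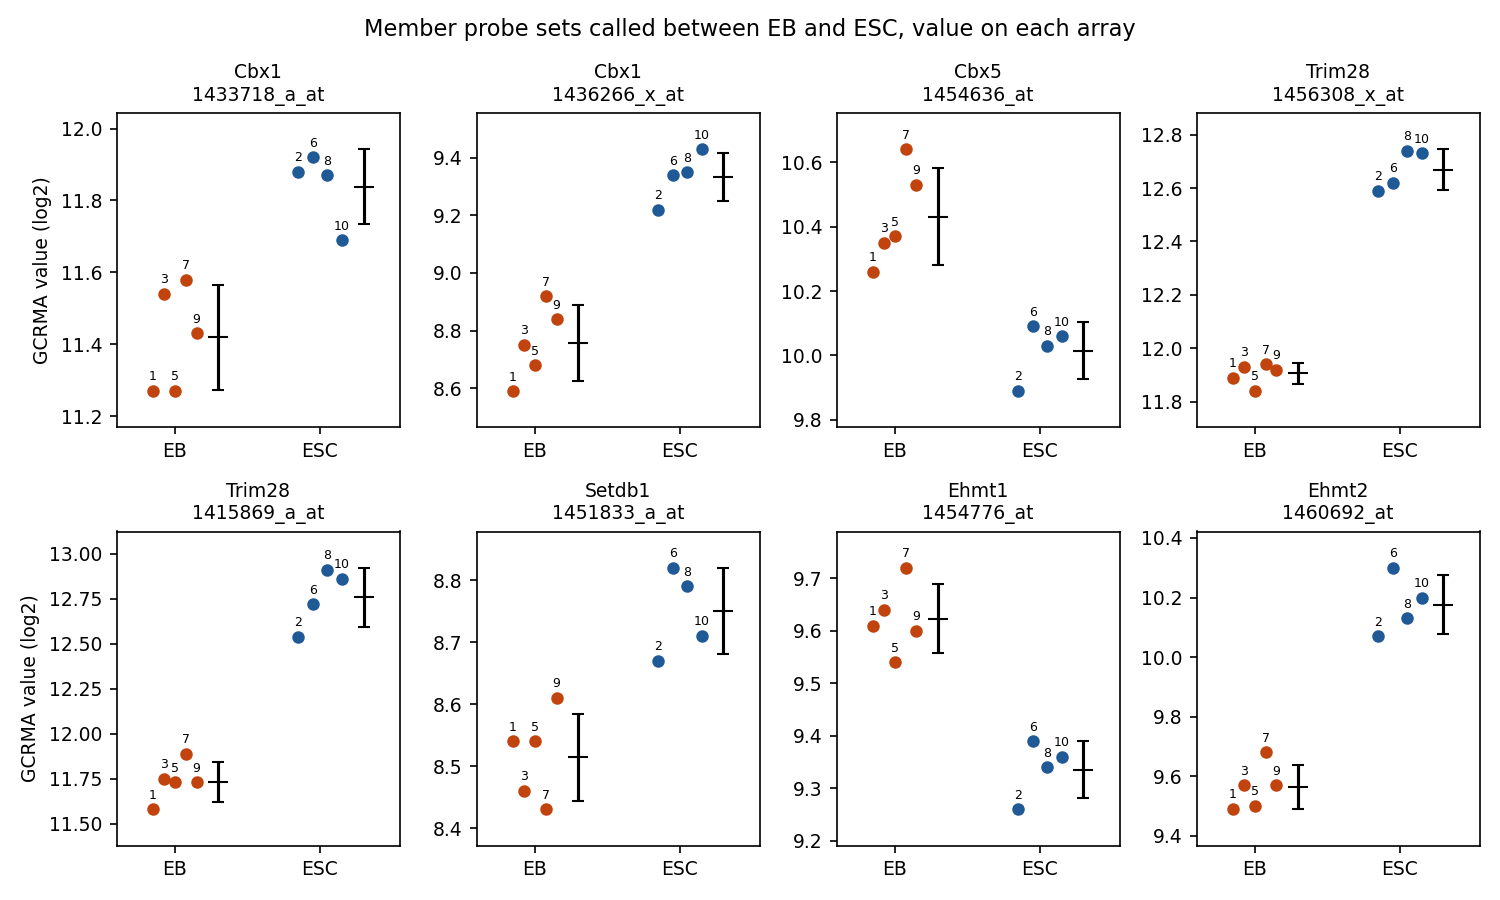
Log2 GCRMA value on each array (vertical axis, a separate scale in each panel) for the 8 called member probe sets, EB arrays left and ESC arrays right, with the sample number above each point and the mean ± SD beside the points. In every panel the groups do not overlap, and the means differ most for Trim28 1415869_a_at, at 11.73 in EB and 12.76 in ESC.

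The brightest probe sets of the HP1 genes Cbx1 and Cbx5 moved in different directions. Cbx1 encodes HP1β. On 1433718_a_at it had 11.27, 11.54, 11.27, 11.58 and 11.43 in EB, against 11.88, 11.92, 11.87 and 11.69 in ESC. ESC 10 was the lowest of its group and EB 7 the highest of its own, so that the gap between the groups was narrow. The level fell by 25.2% in EB (difference -0.42, SE 0.08, adjusted p = 0.00436). On 1436266_x_at the values were 8.59, 8.75, 8.68, 8.92 and 8.84 in EB and 9.22, 9.34, 9.35 and 9.43 in ESC (difference -0.58, SE 0.08, adjusted p = 0.000421), with a wider gap between the groups. On 1433718_a_at the difference was -0.54 for sample numbers up to 6, which was called, and -0.27 for those above, which was not (limma adjusted p = 0.158). The difference between these 2 values was not resolved (0.27, SE 0.14, adjusted p = 0.690), so no dependence on the sample numbers was shown.

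The remaining Cbx1 probe sets did not follow. The _x_at probe set 1422935_x_at averaged 6.56 ± 0.03 in EB and 6.62 ± 0.04 in ESC, 1431773_at 4.92 ± 0.03 and 4.92 ± 0.01, and 1450797_a_at, near the floor, 3.14 ± 0.08 and 3.15 ± 0.04, EB first in each pair. These readings are nearly the same on every array, unlike those of the brighter probe sets. The fall on 1433718_a_at exceeded the change on 1431773_at by 0.42 (exact permutation test, adjusted p = 0.0349) and that on 1422935_x_at by 0.36 (adjusted p = 0.0499). The change on 1431773_at was 0.002, so the difference from it is in effect the fall on 1433718_a_at itself. Whether these flat probe sets detect the transcript was not tested. After quantile normalization the difference from 1422935_x_at was -0.16 and no longer called (adjusted p = 0.116).

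Cbx5 encodes HP1α and was the HP1 gene with a probe set that rose. On 1454636_at it had 10.26, 10.35, 10.37, 10.64 and 10.53 in EB, against 9.89, 10.09, 10.03 and 10.06 in ESC. EB 7 and 9 were the highest, and every EB array was above every ESC array. The level rose by 33.5% (difference 0.42, SE 0.08, adjusted p = 0.00502). It was 0.34 for sample numbers up to 6 and 0.54 for those above, both past the threshold (adjusted p = 0.0111 and 0.0018).

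None of the other 4 Cbx5 probe sets rose. On 1450416_at the values were 7.47, 7.57, 7.36, 7.57 and 7.64 in EB and 7.57, 7.57, 7.90 and 7.73 in ESC, which overlap (difference -0.17, SE 0.09, adjusted p = 0.132). On 1421934_at they were 6.76, 7.03, 7.05, 7.05 and 6.92 in EB and 7.05 on each of the 4 ESC arrays (difference -0.09, SE 0.07, adjusted p = 0.281). The ESC readings are thus alike to 2 decimals, EB 5 and 7 match them, and EB 1, 3 and 9 are lower. Whether this probe set detects the transcript was not tested. The probe set 1421933_at averaged 4.5 ± 0.23 in EB and 4.44 ± 0.04 in ESC, and 1421932_at, near the floor, 2.13 ± 0.04 in EB and 2.13 ± 0.01 in ESC. The change on 1454636_at differed from that on 1450416_at by 0.59, from that on 1421934_at by 0.51 and from that on 1421933_at by 0.36 (exact permutation tests, adjusted p = 0.0349, 0.0349 and 0.0499). After quantile normalization of the arrays, 1450416_at and 1421934_at were called lower (differences -0.29 and -0.22, adjusted p = 0.0461 and 0.0311) while 1454636_at stayed higher, so that Cbx5 was then called in both directions. The direction of Cbx5 rests on 1454636_at alone.

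**Figure D3:**
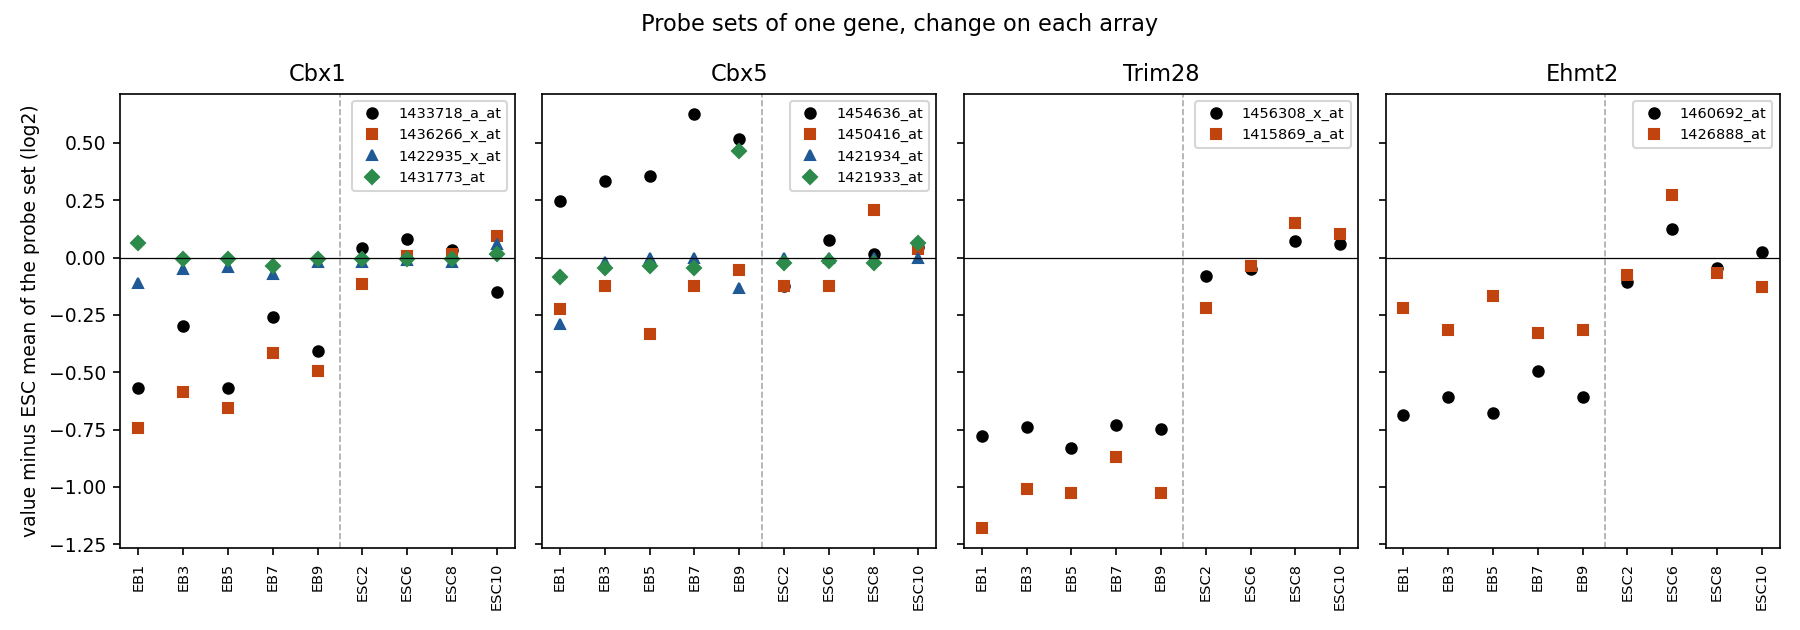
Log2 value on each array minus the ESC mean of the same probe set (vertical axis) for the probe sets of Cbx1, Cbx5, Trim28 and Ehmt2 at log2 4 or more in a group, with EB arrays left of the dashed line and ESC arrays right of it (horizontal axis). Both Trim28 probe sets drop on every EB array, while for Cbx5 only 1454636_at is above 0 on all 5, with 1421933_at joining it on EB 9.

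Cbx3 encodes HP1γ, which is found in euchromatin as well as heterochromatin. Its only probe set of its own, 1432628_at, read 1.98 to 1.99 in EB and 2.0 to 2.01 in ESC, under the floor of the scale, and gives no measure of the gene. Another 4 probe sets are paired with both Cbx3 and its pseudogene Cbx3-ps5 and cannot be assigned to either, and these were not counted as members. The brightest of them, 1416884_at, averaged 11.94 ± 0.08 in EB and 11.94 ± 0.02 in ESC (difference 0.00, SE 0.04). The next, 1448504_a_at and 1439421_x_at, differed by -0.03 (SE 0.04) and -0.01 (SE 0.04). These 3 readings were thus as high in EB as in ESC to within a few hundredths. The fourth, 1454305_at, lay under the floor, at 3.82 ± 0.11 in EB and 3.97 ± 0.10 in ESC (difference -0.15, SE 0.07).

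The brightest probe sets of Cbx1 and Cbx5 moved apart, while most other probe sets of these genes did not follow them. By their brightest probe sets, the change in Cbx1 was 0.84 below that in Cbx5 (exact permutation test on the within-array difference, adjusted p = 0.0159 over 3 pairs of genes), with SDs of 0.12 over the EB and 0.15 over the ESC arrays. With plain _at probe sets only, Cbx1 is read by 1431773_at, and the gap was 0.41. The change on 1431773_at was 0.002, so this gap is in effect the rise in Cbx5 itself and shows no change in Cbx1. Against 1416884_at of Cbx3 or Cbx3-ps5, a comparison added after its values were seen, the change in Cbx1 was 0.42 lower and that in Cbx5 0.41 higher (exact permutation tests, adjusted p = 0.0159 for each, over 5 pairs). The change on 1416884_at was 0.004, so these values are in effect the changes of Cbx1 and Cbx5 themselves and add no separate evidence.

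Ehmt1 and Ehmt2 encode GLP and G9a, which work as a heterodimer. The Ehmt2 probe set 1460692_at had 9.49, 9.57, 9.50, 9.68 and 9.57 in EB, against 10.07, 10.30, 10.13 and 10.20 in ESC. The groups were separated by more than the range of either. The level fell by 34.6% (difference -0.61, SE 0.06, adjusted p = 6.61e-05). On 1426888_at the values were 7.40, 7.30, 7.45, 7.29 and 7.30 in EB and 7.54, 7.89, 7.55 and 7.49 in ESC. These do not overlap either, but ESC 6 stands above its group, and the difference of -0.27 (SE 0.09) was not called (adjusted p = 0.0591). It passed with the probe sets near the floor left out and with a term for the sample numbers, among other settings, and the fall on 1460692_at was 0.34 larger than the change on this probe set (exact permutation test, adjusted p = 0.0349). That difference between the probe sets was lost after quantile normalization (-0.19, adjusted p = 0.116). The change on 1460692_at itself was -0.66 for sample numbers up to 6 and -0.54 for those above, both called.

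Ehmt1 was read by 1 probe set, 1454776_at, at 9.61, 9.64, 9.54, 9.72 and 9.60 in EB and 9.26, 9.39, 9.34 and 9.36 in ESC. Every EB array lay above every ESC array. The level rose by 22.0% (difference 0.29, SE 0.05, adjusted p = 0.00201), so that the partners of the complex moved in opposite directions at the RNA level. The change in Ehmt1 was 0.90 above that in Ehmt2 (exact permutation test, adjusted p = 0.0159 over 3 pairs), and the within-array difference of the genes varied little, with SDs of 0.04 over the EB and 0.05 over the ESC arrays. Leaving out any 1 array kept this gap between 0.88 and 0.92. The rise in Ehmt1 was 0.27 for sample numbers up to 6 and 0.32 for those above, both called.

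Suv39h2, which has a paralog of overlapping function in Suv39h1, had no called probe set. On 1422979_at it had 6.29, 6.80, 6.75, 6.91 and 6.40 in EB and 6.83, 6.85, 6.77 and 6.92 in ESC. EB 1 and 9 were low and the other 3 EB arrays lay near the ESC arrays (difference -0.21, SE 0.13, adjusted p = 0.195). On 1433996_at the means were 5.76 ± 0.09 in EB and 5.98 ± 0.15 in ESC (difference -0.23, SE 0.08, adjusted p = 0.0698), and on 1436561_at 5.48 ± 0.03 in EB and 5.51 ± 0.02 in ESC. All 3 differences were below 0, and 1433996_at was called under 4 of the alternatives. After quantile normalization both 1433996_at and 1436561_at were called lower (differences -0.31 and -0.11, limma adjusted p = 0.0145 and 0.0281).

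By pattern over the 9 arrays, the genes most like Cbx5 1454636_at, the largest called rise, were Smarca4, the ATPase of BAF remodelling complexes (Pearson r = 0.989), Boc, a Hedgehog co-receptor (0.983), and Crispld2, a secreted protein (0.977). Those most like Trim28 1415869_a_at were Eif2b1, a subunit of a translation initiation factor, and Pprc1, a transcriptional coactivator (0.996 each), then Twf2, an actin-binding protein (0.994). These are descriptions over 9 points that share 1 difference between groups. Of 8879 genes with a mean of at least log2 6, 105 exceeded r = 0.95 with Cbx5 and 492 with Trim28.

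The wider machinery of H3K9 methylation was described by the brightest probe set of each gene. By that measure 15.7% of all 18193 genes were called higher and 14.7% lower in EB, with a median difference of -0.04. Of all these genes, 6076 lay under log2 4 in both groups, against 5 of the 70 measured in the 7 lists below. The shares over all genes are therefore not like for like with the lists. Among all probe sets at log2 4 or more in at least 1 group, 39.1% were called in either direction. Of 11 H3K9 demethylases, 3 rose, 3 fell and 5 were not called (median -0.02). Phf2, a JmjC-domain protein that acts on dimethylated H3K9, averaged 6.77 ± 0.22 in EB and 4.77 ± 0.34 in ESC (difference 2.0, adjusted p = 2.53e-05), and Kdm7a 6.93 ± 0.04 and 6.06 ± 0.56 (0.87, adjusted p = 0.0196), with overlapping arrays. Kdm4c, which removes the trimethyl mark, averaged 6.97 ± 0.10 in EB and 8.70 ± 0.22 in ESC (-1.73, adjusted p = 3.64e-06), and Jmjd1c 9.81 ± 0.06 and 10.93 ± 0.12 (-1.12, adjusted p = 1.97e-06). Kdm1a, or LSD1, had a difference of -0.24 and was not called.

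The list of partners of the methyltransferases also held proteins related to these enzymes, Setdb2, Prdm2, Prdm16 and Mecom. It was mixed as well, with 2 of 10 higher, 2 lower and 6 not called (median -0.09). Mecom, a PR-domain zinc finger protein, averaged 8.71 ± 0.15 in EB and 5.76 ± 0.22 in ESC (difference 2.96, adjusted p = 3.47e-07), and Wiz, a zinc finger partner of GLP and G9a, rose by 0.45 on the log2 scale (adjusted p = 0.00379). The chromodomain gene Cdyl2 averaged 2.90 ± 0.20 in EB, under the floor, and 5.24 ± 0.41 in ESC (-2.34, adjusted p = 1.78e-05). Atf7ip2, related to the SETDB1 cofactor ATF7IP, fell by 0.75 (adjusted p = 0.00125), and Setdb2 had a difference of -0.41 that was not called.

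More genes of heterochromatin fell than rose. In the list of HUSH, a complex that works with SETDB1, and MORC proteins, 4 of 5 fell and none rose (median -0.66): Morc3 by 1.13, Tasor by 1.07, Mphosph8 by 0.66 and Morc2a by 0.19 on the log2 scale (adjusted p = 1.33e-05, 7.99e-05, 0.000549 and 0.0466), with Pphln1 at 0.23 and not called. Among HP1 partners and other heterochromatin factors, 13 of 19 fell, 2 rose and 4 were not called (median -0.51). L3mbtl2, an MBT-domain repressor, averaged 7.92 ± 0.14 in EB and 9.54 ± 0.12 in ESC (-1.62, adjusted p = 1.77e-06), and Hells, a remodeller that supports DNA methylation, 9.95 ± 0.08 and 11.38 ± 0.05 (-1.43, adjusted p = 2.34e-07). Lbr, the lamin B receptor that binds HP1, and Incenp, of the chromosomal passenger complex, each fell by 0.86 (adjusted p = 0.000168 and 0.00034), and Orc1 was at -0.26 and not called.

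The KRAB zinc finger proteins that bring TRIM28 to DNA followed in part. Of 6 measured, 4 fell, 1 rose and 1 was not called (median -0.41). Zfp819 averaged 3.43 ± 0.15 in EB, under the floor, and 6.5 ± 0.10 in ESC (-3.08, adjusted p = 5.58e-08). Zfp57, which protects imprints, fell by 1.24 and Zfp568 by 0.43 (adjusted p = 0.00395 and 0.000268), while Zfp445, also a protector of imprints, rose by 0.43 (adjusted p = 0.00211). Zfp708 lay under the floor. A list of 16 genes reported as targets of H3K9 silencing mixed genes held silent in ESCs with genes silenced as they differentiate, and 8 were measured. None rose, 3 fell (Dnmt3l, Pou5f1 and, under the floor in both groups, Tcstv1) and 5 were not called. The largest falls were in genes that were high in ESC. Dnmt3l, a cofactor of DNA methyltransferases, averaged 5.34 ± 0.48 in EB and 11.14 ± 0.12 in ESC, and the pluripotency factor Pou5f1 9.06 ± 0.68 and 12.23 ± 0.10, while Tcstv1 (-0.10) was under the floor in both groups and Cdx2 (0.17) was not called.

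**Figure D4:**
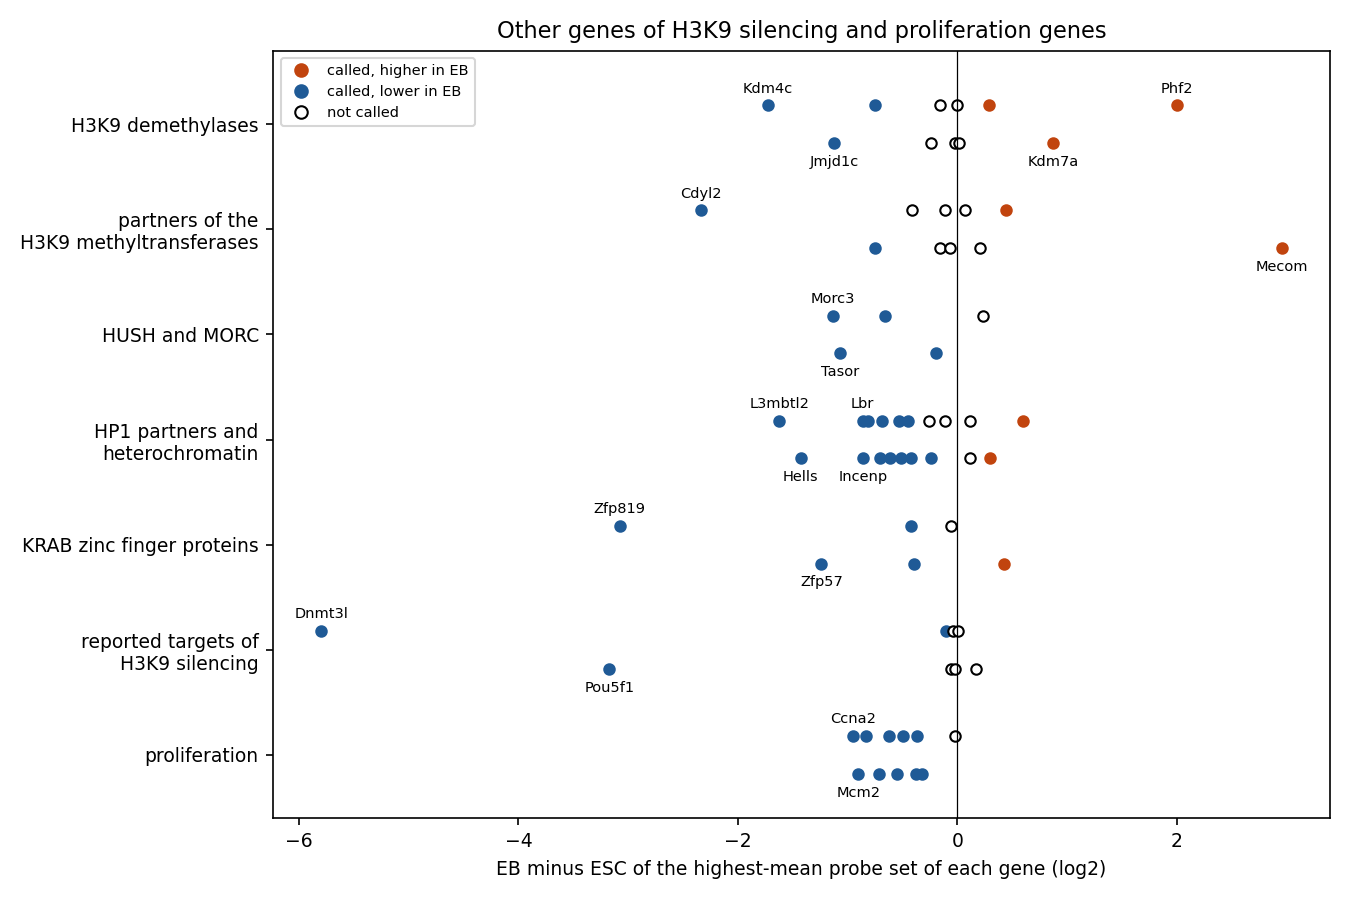
Log2 difference, EB minus ESC, of the brightest probe set (horizontal axis) for each measured gene of 7 lists (vertical axis), with called genes filled and those with larger changes named. Demethylases lie on both sides of 0, from Kdm4c at -1.73 to Phf2 at 2.0, while 13 of 19 HP1 partners and 10 of 11 proliferation genes are called lower.

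Cell identity and proliferation moved between the same arrays. Of 12 pluripotency markers, 11 fell in EB, and their summed intensity was 3908 to 7498 in EB and 39491 to 42502 in ESC. Markers of other cell types were higher in EB for 5 of 9 measured genes of mesoderm and heart, 5 of 8 of primitive and visceral endoderm, 4 of 7 of blood and endothelium and 6 of 7 of fibroblasts. Under the floor in both groups were Tbx5, Mesp1, Apoa1, Pecam1, Cdh5 and Thy1, of which Cdh5 is counted among the 4 called higher. Neural markers were mixed, with 1 of 6 higher and 1 lower, and Neurog2 and Map2 under the floor. Of 11 proliferation genes, 10 fell (median -0.55), with a summed intensity of 29568 to 31003 in EB and 41970 to 44729 in ESC. Ccna2 fell by 0.95, Mcm2 by 0.90, Mcm5 by 0.83 and Mcm3 by 0.71 on the log2 scale (adjusted p = 2.44e-06, 2.96e-07, 4.55e-06 and 2.71e-06), and Mki67 was at -0.02 and not called. The part of these shifts in the changes of Trim28, Cbx1, Ehmt2 and the other members was not tested. Nor was their part in the changes of the heterochromatin and other H3K9 lists. In RNA of whole samples, fewer cells of a type and less RNA per cell cannot be told apart.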

How the data were processed

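The authors hybridized biotin-labelled RNA to Affymetrix mouse expression arrays and deposited GCRMA intensity values per probe set on a linear scale. Per the labels the tool was GCRMA, and whether all 9 arrays were normalized together is not given in the sources used here. Their log2 was taken with no further normalization, and 64 control probe sets were left out. Gene symbols are those of the array's annotation. Of 45037 probe sets, 34945 had 1 symbol, 932 several and 9160 none. Array medians were 4.01 to 4.09, and 49.1% to 49.9% of probe sets per array lay under log2 4. Array pairs correlated at r = 0.997 to 0.999 within EB, 0.995 to 0.998 within ESC and 0.968 to 0.977 between groups, and no pair was identical. Precision is limited by the number of arrays.

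Groups were taken from sample titles. EB and ESC were compared with limma 3.58.1 in R 4.3.3 (lmFit, eBayes with trend and robust, two-sided, Benjamini-Hochberg over all probe sets), which was tested on simulated data. Differences between probe sets or paralogs used two-sided exact permutation tests of within-array differences. Of 6 planned pairs of genes, those with Suv39h1 or Cbx3 could not be used. The study's methods give 4 biological replicates for the arrays, which matches the number of ESC arrays. Nothing says this of the EB arrays, so p-values measure only the spread between these samples, which may be technical. The members, lists and tests were chosen with earlier results of these data known. Named genes were all members and, per list, the 4 called genes with the largest change and the largest change not called. The alternatives were quantile normalization, median centring, eBayes without trend and robust, array weights, a filter at log2 4, plain _at probe sets, a fold of 2, a term for sample numbers up to 6 or above, each of these sets alone, and each array left out. The titles number both groups in one run but name no batch.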

Additional observations from a re-analysis of the deposited data

Results flagged for a closer look

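In 9 of 44 groups of arrays (22 probe sets in EB and in ESC) 1 array stood apart from the rest of its group by Dixon's test at 95%, where chance gives about 1 in 20 for independent groups. These groups share the same arrays and are not independent, so the count cannot be set against chance. Several of the flagged probe sets were nearly flat or lay under log2 4. ESC array 10 was the high one for 4 probe sets: Cbx1 1422935_x_at read 6.68 there and 6.60 to 6.61 on the other ESC arrays, Cbx1 1431773_at 4.93 and 4.91, Cbx1 1450797_a_at 3.21 and 3.12 to 3.14, and Cbx5 1421933_at 4.51 and 4.42 to 4.43. EB array 9 read 4.91 on Cbx5 1421933_at, against 4.36 to 4.42 on the other EB arrays. The remaining arrays were EB 1 on Cbx5 1421932_at (2.20, others 2.10 to 2.12), EB 3 on Setdb1 1458215_at (6.14, others 6.24 to 6.26), ESC 2 on Suv39h2 1436561_at (5.55, others 5.5 to 5.51) and ESC 6 on Ehmt2 1426888_at (7.89, others 7.49 to 7.55). None of the 9 was on a called probe set.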

How the results depend on the processing

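Of 407 values of the 22 probe sets under the alternatives, 365 kept their direction and side of the threshold, 10 lost the call, 14 gained one and 18 changed sign, none of them called. The sign changes were in 5 probe sets with differences near 0. Cbx1 1431773_at gave -0.034 after quantile normalization, -0.0041 with array weights, -0.024 within sample numbers above 6 and -0.012 to 0.011 with 1 array left out. Cbx1 1450797_a_at gave 0.044 after quantile normalization, 0.0065 after median centring, 0.019 with array weights and -0.041 to 0.0093 with 1 array left out. Cbx3 1432628_at gave 0.012 after quantile normalization and 0.0024 after median centring. Cbx5 1421933_at gave -0.033 within numbers up to 6 and -0.050 (without EB 9) to 0.087 with 1 array left out, and Cbx5 1421932_at 0.025 after quantile normalization, 0.011 after median centring, 0.0092 within numbers up to 6 and -0.023 to 0.00093 with 1 array left out. All 8 called probe sets stayed called with any 1 array left out. Members called lower numbered 6, and 12 after quantile normalization (with Cbx5 then called in both directions, 1 such gene), 1 with plain _at probe sets (3 genes called), a setting that cannot read Trim28, which has none, and reads Cbx1 by 1431773_at, and 1 at a fold of 2, where 0 were called higher and Trim28 was the 1 gene left. Over all probe sets, 7272 were lower after median centring, 12834 with array weights, 2997 among plain _at probe sets, and at a fold of 2 there were 1736 higher and 1104 lower. For the related lists that fold left 2 higher and 11 lower. Leaving out 1 array gave 4088 to 12735 called lower, the highest without EB array 9. Pairs of probe sets that differed numbered 7 of 11, 4 of the 6 with plain _at probe sets, 6 after quantile normalization, where those of Cbx1 1422935_x_at and Ehmt2 1426888_at were lost and that of Cbx1 1436266_x_at gained (adjusted p = 0.0291), and 0 with any 1 array left out, where the smallest possible p is 0.0286 or 0.0357 before adjustment. With limma on the same differences they numbered 7. Some of these pairs hold a probe set that was nearly flat over the arrays, as given above. Pairs of genes that differed were 3 of 3, and 5 of 5 with the added probe sets of Cbx3 and Cbx3-ps5. The added pairs in effect restate the changes of Cbx1 and Cbx5, as given above. The cause of these shifts was not tested. No paired analysis was possible because the groups share no sample numbers.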

Other observations

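A further 2 pairs of related enzymes stood out after their values were seen, each read by its brightest probe set. The class I deacetylase genes moved in opposite directions, with Hdac1 at 10.61 ± 0.05 in EB and 11.12 ± 0.04 in ESC (SD, n = 5 and 4 arrays, difference -0.51, limma adjusted p = 1.25e-05) and Hdac2 at 11.52 ± 0.16 in EB and 10.93 ± 0.19 in ESC (difference 0.60, adjusted p = 0.00291). Among demethylases, Kdm4a averaged 8.30 ± 0.12 in EB and 8.01 ± 0.10 in ESC (0.29, adjusted p = 0.0227), while Kdm4c was lower in EB as given above. The difference between the members of each pair was not tested.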
